A study of Mus musculus with 3 samples.

Results

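Ccl3, Ccl4 and the genes most closely tied to them in the chemokine system were followed here across bone marrow, blood and injured tendon: 7 of the 27998 genes in the files, of which 5 encode ligands (Ccl3, Ccl4, Ccl6, Ccl9 and Ccl5) and 2 encode receptors (Ccr1 and Ccrl2). The set was picked because Ccl3 and Ccrl2 are among the genes most raised in tendon over blood neutrophils, so the tendon-to-blood values of neutrophils describe that choice and are not independent of it. Every other contrast with tendon neutrophils uses the same tendon values and is not independent of that choice either. The study asked how neutrophils change as they leave the marrow and reach a wound that later forms heterotopic bone. Unsorted cells were taken from 10-week-old mice 3 days after a back burn combined with transection of the Achilles tendon, and marrow, blood and the injured tendon gave 1 single-cell library each. The mice were male C57BL/6J. The marrow was flushed from the femurs, blood was reduced to mononuclear cells on a density gradient, and enzymes were used for the tendon alone, with collagenases and dispase at a warm temperature. All 3 groups were injured and no uninjured group was analysed here. With 1 library per tissue there were no replicates and no tests, and site cannot be told apart from library and preparation.

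CC chemokines are small secreted proteins that steer leukocytes along concentration gradients by binding receptors that signal through inhibitory G proteins. Ccl3 and Ccl4 are released early in inflammation and bind Ccr1, as does Ccl5. Ccl6 and Ccl9 are rodent myeloid chemokines that bind Ccr1. Ccrl2 is an atypical receptor that does not signal in the usual way and presents chemerin to cells bearing Cmklr1.

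In the GENCODE annotation of GRCm38 the 5 ligand genes lay within a single cluster on chromosome 11 and both receptor genes on chromosome 9. Ccl3 (83647844 to 83649355, minus strand) and Ccl4 (83662584 to 83664683, plus strand) pointed away from each other, with 13229 bases between their annotated starts. Ccl5 (83525778 to 83530518), Ccl9 (83572919 to 83578636) and Ccl6 (83587882 to 83593087) were on the minus strand, and a gene annotated on the opposite strand overlaps Ccl6. Ccrl2 (111054486 to 111057519) and Ccr1 (123962124 to 123968692) were both on the minus strand. Promoter windows of RefSeq, build GRCm38.p6, were matched for 5 of the 7 genes, and the exceptions were Ccl4 and Ccl5. The 250 bases before the start are given below for Ccl3 and Ccrl2, and for Ccl6 and Ccr1. Ccl3 and Ccrl2 had tendon-to-blood log2 ratios of 4.89 or above in both myeloid classes. Ccl6 and Ccr1 stayed within 2-fold between tendon and blood neutrophils (−0.36 and 0.92) and were past it in monocytes and macrophages (1.02 and 1.17). The sequences run 5′ to 3′ on the minus strand, with matches to the NF-kB consensus in capitals. The Ccl3 window is chr11:83649379-83649628, that of Ccrl2, at the first of its 3 listed starts, chr9:111057519-111057768, that of Ccl6 chr11:83593088-83593337 and that of Ccr1 chr9:123968693-123968942.
Ccl3: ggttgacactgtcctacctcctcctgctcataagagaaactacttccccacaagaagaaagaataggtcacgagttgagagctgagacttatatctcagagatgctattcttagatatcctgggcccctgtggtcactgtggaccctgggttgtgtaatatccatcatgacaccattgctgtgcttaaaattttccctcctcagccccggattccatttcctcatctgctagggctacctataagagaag
Ccrl2: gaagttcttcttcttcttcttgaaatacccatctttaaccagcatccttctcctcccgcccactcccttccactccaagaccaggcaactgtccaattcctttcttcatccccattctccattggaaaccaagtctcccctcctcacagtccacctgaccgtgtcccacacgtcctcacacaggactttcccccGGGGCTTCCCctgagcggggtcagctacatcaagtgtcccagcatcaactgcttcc
Ccl6: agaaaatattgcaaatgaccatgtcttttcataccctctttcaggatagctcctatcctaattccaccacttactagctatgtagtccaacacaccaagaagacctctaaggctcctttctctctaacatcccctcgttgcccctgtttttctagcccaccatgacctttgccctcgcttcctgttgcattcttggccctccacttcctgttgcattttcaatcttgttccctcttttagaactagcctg
Ccr1: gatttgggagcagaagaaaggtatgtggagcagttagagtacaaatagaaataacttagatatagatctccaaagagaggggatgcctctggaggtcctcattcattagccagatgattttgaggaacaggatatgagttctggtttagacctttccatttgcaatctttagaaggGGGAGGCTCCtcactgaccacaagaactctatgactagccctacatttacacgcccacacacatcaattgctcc
Motifs were searched on both strands: the NF-kB consensus, AP-1 (TGANTCA) and C/EBP (TTGCNNAA), and they were found in 7.25%, 6.75% and 9.56% of 32851 promoter windows of this length. At the first of its 3 listed starts Ccrl2 held an NF-kB match from 56 to 47 bases before the start that reads on both strands. The windows at its remaining listed starts held none of the 3 motifs. Ccr1 held an NF-kB match from 74 to 65 bases before its start. Ccl9 held an NF-kB match (35 to 26 bases before) and an AP-1 match (53 to 47 bases before). The windows of Ccl3 and Ccl6 held none of the 3 motifs. These letter matches are a description of the windows and are not evidence of binding.

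Each library was clustered alone, without the chemokine and receptor genes among the variable genes, and clusters took a class name from marker genes. After filtering, 1813 bone marrow, 2146 blood and 4780 tendon cells remained, with 22836, 8316 and 11082 UMIs in the median deposited cell. Levels are counts per 1000000 UMIs of a class (CPM), and intervals in parentheses are exact 95% intervals that cover counting error only. Neutrophil-like cells of marrow, blood and tendon numbered 1046, 399 and 560, and monocyte/macrophage-like cells 155, 467 and 1758. All 14 neutrophil markers were detected in each neutrophil-like class, at a summed 483689, 346180 and 196114 CPM, against 7706, 3890 and 760 CPM in the monocyte/macrophage-like cells of the same libraries. The libraries shared 2 cell barcodes between bone marrow and blood, 1 between bone marrow and tendon and 6 between blood and tendon.

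Ccl3 and Ccl4 were nearly silent in neutrophils of the marrow and of the blood mononuclear fraction, and abundant in those of the wound. Blood neutrophils outside that fraction were not sampled. In neutrophil-like cells Ccl3 rested on 3 UMIs in bone marrow (0.126 CPM) and 5 in blood (1.24 CPM), and on 3302 in the tendon (1472 CPM). The tendon-to-blood log2 ratio was 10.21 (8.98 to 11.83), the second highest of 7480 genes with at least 20 UMIs over both groups. Ccl4, the gene divergent from it, gave 0.168 CPM for marrow cells, 3.98 CPM for those of blood and 2100 CPM for tendon cells, with a tendon-to-blood value of 9.04 (8.34 to 9.85) on the log2 scale and the fifth place in that order. The blood and bone marrow values of both genes rested on 16 or fewer UMIs, and the tendon value lay far outside their intervals. In blood 1 cell held 80% of the Ccl3 UMIs and 1 cell held 43.8% of the Ccl4 UMIs, a spread between cells that these intervals do not cover. Against bone marrow all 6 members that could be compared were at least 2-fold higher in tendon neutrophil-like cells, where 18.1% of genes were higher and 31.8% lower. Ccl4 stood at 13.61 (12.26 to 15.49), first of 9712 genes, and Ccl3 at 13.52 (11.97 to 15.79). The tendon values are those the set was picked on, so this count and these places are not independent of the choice. After every cell was thinned to 1000 UMIs, 42.7% (38.5 to 47.0) of 539 tendon neutrophil-like cells held Ccl3 and 42.3% (38.1 to 46.6) held Ccl4, whereas Ccl3 was seen in 0 of 396 blood cells, which allows up to 0.758%. Without thinning the Ccl3 share was 55.4% in the tendon (median 3492 UMIs per cell) and 0.501% in blood (median 8633 UMIs).

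Ccrl2, the atypical receptor, shared that pattern and Ccr1, the signaling receptor, did not. Neutrophil-like cells held Ccrl2 at 0.377 CPM in the marrow, at 1.74 CPM in blood and, at the injury, at 830 CPM, and its tendon-to-blood log2 ratio of 8.90 (7.85 to 10.21) was the sixth highest. Ccr1 was present at all 3 sites, at 153 CPM (148 to 158), 493 CPM (471 to 515) and 933 CPM (894 to 974). The order bone marrow, blood, tendon held with no overlap of intervals, but the tendon-to-blood log2 ratio was 0.92 (0.83 to 1.01), and under other processing it ranged from 0.61 to 0.93. The thinned share of cells with Ccr1 was 16.3%, 42.2% and 54.9% in the same order. Without thinning it was 83.7%, 95.7% and 85.5%, at medians of 20807.5, 8633 and 3492 UMIs per cell. The tendon share then lay below that of blood, so the rise from blood to tendon holds relative to total UMIs only.

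The remaining ligands diverged. Ccl6 was already high in blood neutrophil-like cells, at 1560 CPM against 137 CPM in the marrow, and tendon cells had 1216 CPM, with a log2 ratio to blood of −0.36 (−0.42 to −0.29). Ccl9 was low throughout, at 1.26 CPM, 31.3 CPM and 89.6 CPM, with a tendon-to-blood log2 ratio of 1.52 (1.19 to 1.85) that reached 3.18 when no doublets were removed. Ccl5 was not detected in tendon neutrophil-like cells (0 of 560 cells, with an exact 95% interval up to 0.657%). It stood at 0.126 CPM in bone marrow and 77.6 CPM in blood. That blood value came from few cells: 5 of the 399 held 95.5% of the 312 Ccl5 UMIs, and the same 5 held 88.0% of all UMIs of the T and NK marker lists in the class. With 3 times as many doublets removed Ccl5 fell to 4.18 CPM in blood. Counted over all members, 4 were at least 2-fold higher and 1 lower in tendon than in blood neutrophil-like cells, where 12.1% and 22.9% of all genes tested were, and this is the contrast the members were chosen on.

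**Figure D1:**
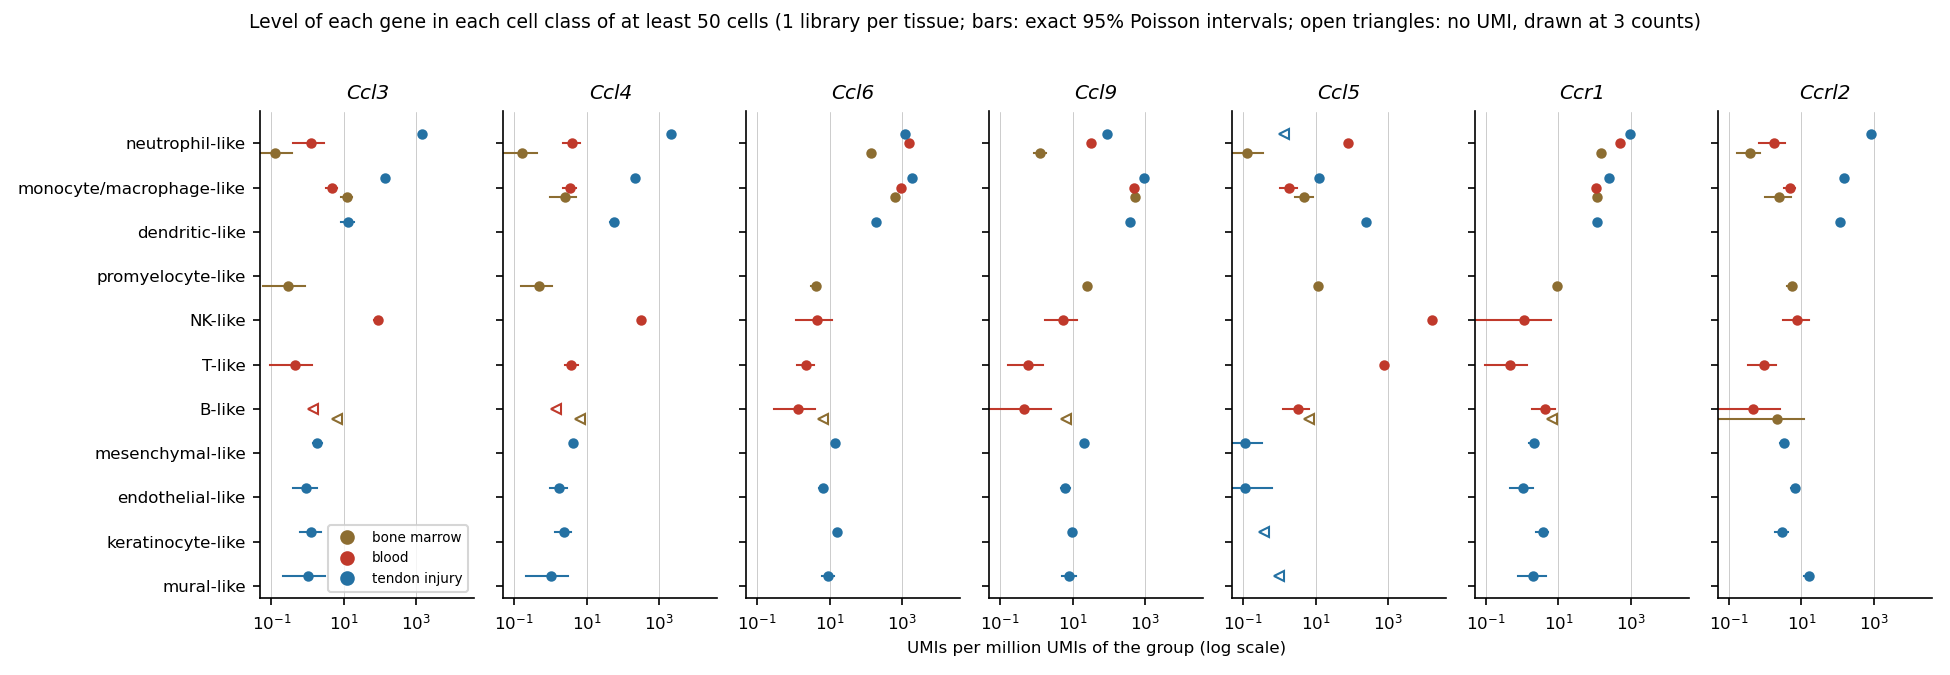
CPM (log scale) of each gene in every class of at least 50 cells, by library, with exact 95% Poisson intervals drawn down to 0.05 CPM at the lowest and open triangles for classes without a UMI, placed at 3 counts. Ccl3, Ccl4 and Ccrl2 have their highest points in tendon neutrophil-like cells (1472, 2100 and 830 CPM), Ccl6 and Ccl9 in tendon monocyte/macrophage-like cells, and Ccl5 in blood NK-like cells. The 34 blood basophil/mast-like cells, higher for Ccl3 (3675 CPM), Ccl6 (6870 CPM) and Ccl9 (3024 CPM), are too few to be drawn. Unnamed clusters are not drawn either, and the tendon cluster led by Arg1, Ppbp and Pf4 was higher for Ccl6 and Ccl9.

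Between bone marrow and blood the members that differed on many UMIs were Ccl6 and Ccr1. The blood-to-marrow log2 ratio of neutrophil-like cells was 3.51 (3.44 to 3.57) for Ccl6, 1.68 (1.60 to 1.76) for Ccr1 and 4.64 (4.06 to 5.27) for Ccl9. The 126 blood UMIs of Ccl9 lay in 24 of 399 cells, with 32.5% of them in 1 cell. Under other processing the Ccl9 ratio ranged from 2.83 to 4.83. Of the 5 members with at least 20 UMIs, 5 were at least 2-fold higher and 0 lower, where 15.8% and 17.0% of all genes were. Of these, Ccl4 rested on 20 UMIs over both groups and Ccl5 on 315, mostly from 5 blood cells, and under some other settings both fell below 20 UMIs and were not counted, with log2 ratios that stayed at 3.09 or above for Ccl4 and 4.85 or above for Ccl5. With late clusters only, those in which Cxcr2, the receptor that draws neutrophils out of the marrow, was among the leading genes, Ccr1 came to 0.88 and Ccl6 and Ccl9 stayed past 2-fold.

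Finer clusters of neutrophil-like cells were then compared with each other. Camp, which encodes a granule protein made before neutrophils are released, was used only to order them. In the 13 bone marrow clusters Ccl6 went from 1.48 CPM in the cluster led by histone genes, with 41149 CPM of Camp, to 2177 CPM in the cluster led by Il1b, with 109 CPM of Camp. Ccr1 went from 35.4 CPM to 586 CPM between the same clusters. That Il1b-led marrow cluster of 53 cells had no Ccl3 UMI and 6.26 CPM of Ccl4, and blood clusters had at most 6.72 CPM of Ccl4. The 3 tendon clusters differed from each other. A cluster of 74 cells that still held 3162 CPM of Camp and was led by Retnlg and S100a9 had 46.7 CPM (28.9 to 71.3) of Ccl3 and 71.1 CPM of Ccrl2. The largest tendon cluster, with 293 cells, had 1032 CPM of Ccl3 and 673 CPM of Ccrl2. A cluster of 193 cells led by Ccl3, Hcar2, Il1a, Irg1 and Cxcl3 had 3743 CPM (3579 to 3912) of Ccl3, 4111 CPM of Ccl4 and 1856 CPM of Ccrl2. Ccl6 was lowest in this last cluster, at 480 CPM against 1432 and 1471 CPM, while Ccr1 lay between 831 and 1003 CPM in all 3. The clusters were made from the same cells, so these values describe them and carry no test.

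**Figure D2:**
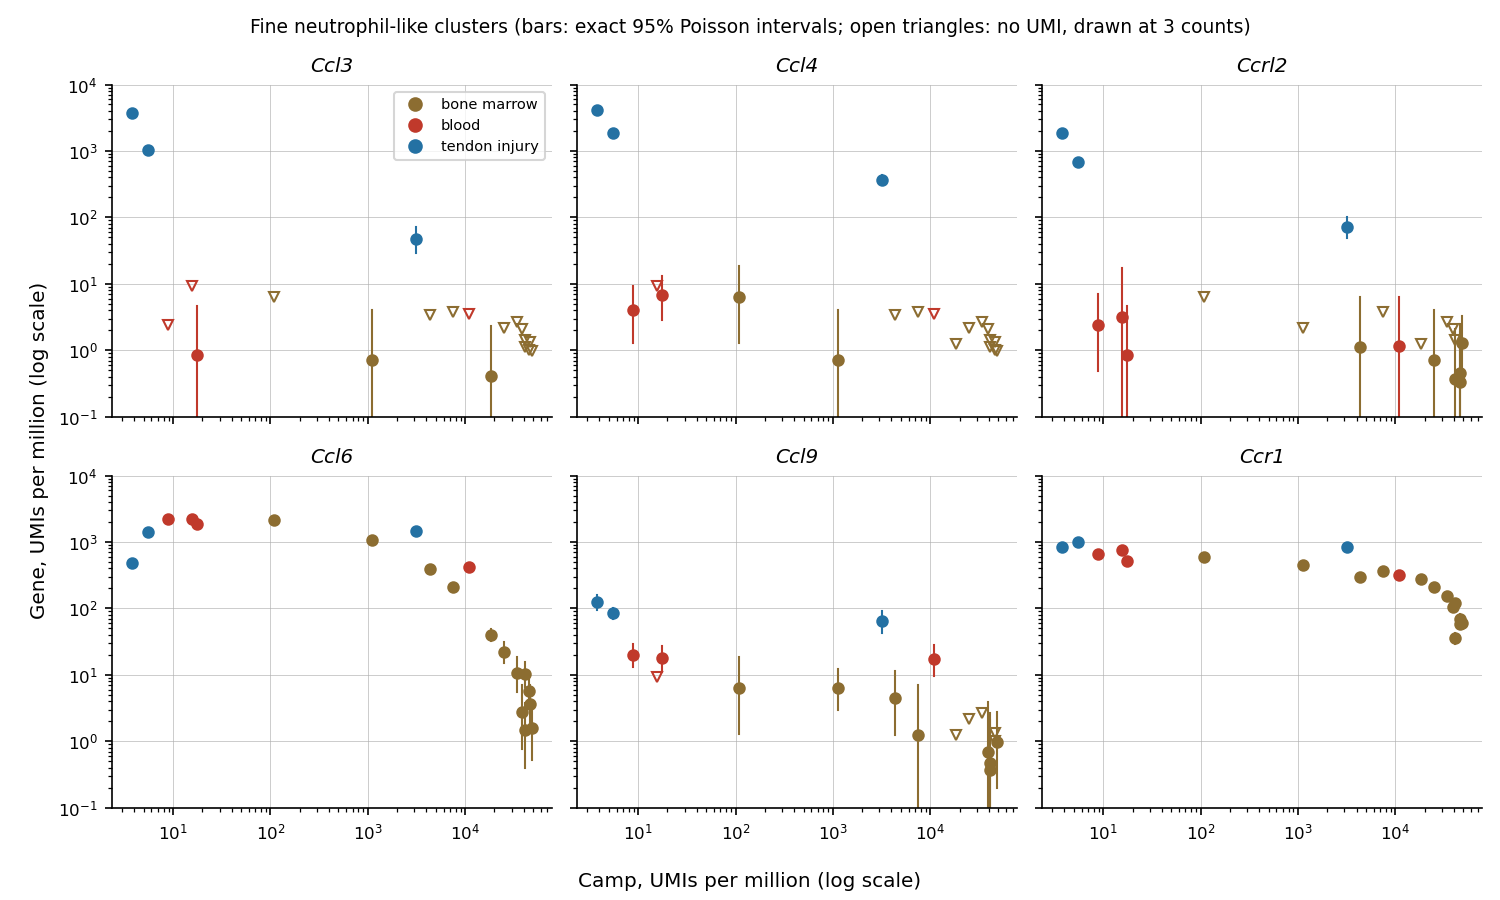
CPM of 6 genes (vertical, log scale) against Camp (horizontal, log scale) in 20 fine neutrophil-like clusters, colored by library, with exact 95% Poisson intervals and open triangles for clusters without a UMI, drawn at 3 counts. Ccl6 and Ccr1 are higher where Camp is lower across bone marrow and blood clusters; Ccl3, Ccl4 and Ccrl2 are above 40 CPM only in the 3 tendon clusters.

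Joint detection of Ccl3, Ccl4 and Ccrl2 differed between the myeloid classes of the tendon. At 1000 UMIs per cell, 60.0% of the 230 tendon neutrophil-like cells with Ccl3 also held Ccl4, against 29.1% of those without Ccl3. Ccrl2 was seen in 50.9% and 26.5% of the same cells, and Ccr1 in 53.9% and 55.7%. In tendon monocyte/macrophage-like cells Ccl4 was seen in 33.5% of 167 cells with Ccl3 and 9.10% of those without, whereas Ccrl2 was seen in 14.4% and 13.7%. Cells with 3 or more of the 7 genes made up 29.9% (3 genes), 14.7% (4) and 2.78% (5) of tendon neutrophil-like cells, while in blood 0.758% held 3 and none of 396 held more. In bone marrow 75.0% of 1040 cells held none. Cells of a library share its preparation and their depth was made equal, so these shares are a description.

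**Figure D3:**
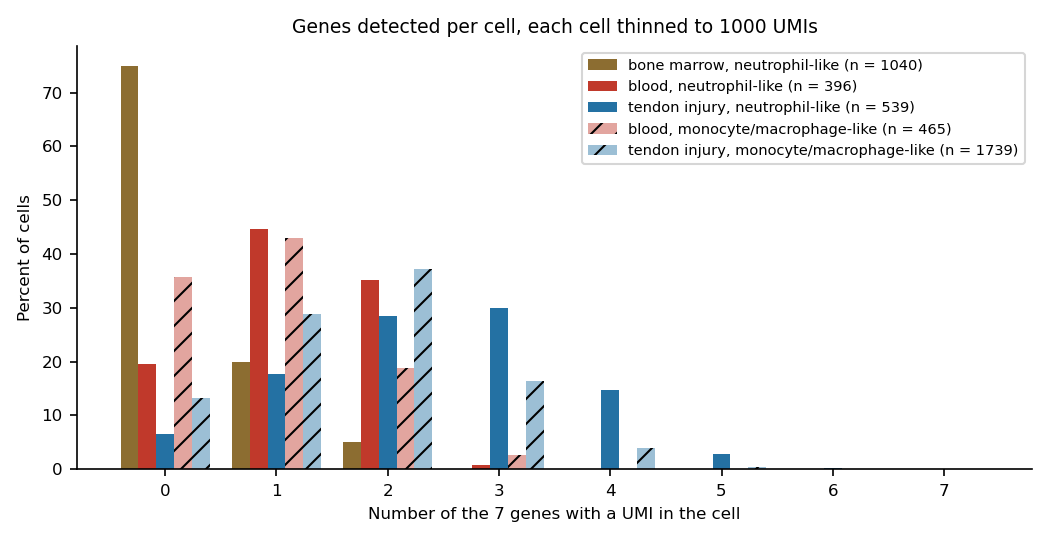
Percent of cells (vertical) holding a given number of the 7 genes (horizontal) after thinning to 1000 UMIs, for neutrophil-like cells of 3 libraries (solid) and monocyte/macrophage-like cells of 2 (hatched). Bone marrow neutrophil-like cells peak at none of the genes (75.0%), those of blood at 1 gene and those of the tendon at 3 genes (29.9%).

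Monocytes and macrophages of the tendon held the same 3 genes at lower levels. Their Ccl3 was 12.0 CPM for marrow, 4.69 CPM for blood and 139 CPM for tendon cells, which gives a tendon-to-blood log2 ratio of 4.89 (4.42 to 5.40). Ccl4 had 2.47, 3.42 and 213 CPM, with a ratio of 5.96 (5.42 to 6.56), and Ccrl2 had 2.47, 4.81 and 151 CPM, with a ratio of 4.97 (4.51 to 5.47). The chemokines typical of these cells differed less: Ccl6 had 645, 902 and 1825 CPM (log2 ratio 1.02) and Ccl9 had 535, 503 and 951 CPM (0.92). Ccr1 had 114, 108 and 243 CPM, and the bone marrow and blood intervals overlapped. In tendon over blood 6 of 7 members were at least 2-fold higher and 0 lower, where 15.9% and 13.3% of 11572 genes were. Under other settings this count ranged from 4 to 7. Ccl6 lay at that edge and fell below it in several settings, to 0.81 at the lowest. Ccr1 fell to 0.92 with classes named cell by cell. The sixth, Ccl5 (log2 ratio 2.75 on 273 and 15 UMIs), lost its direction under other doublet removal, as given in the closing section. From bone marrow to blood 0 members were at least 2-fold higher and 2 lower, where 6.94% and 1.88% of genes were. The 2 were Ccl3 (−1.35, −2.07 to −0.64) and Ccl5 (−1.38), both on fewer than 80 UMIs. All 14 marrow UMIs of Ccl5 were in 1 of 155 cells. Ccrl2, at 0.96 (−0.22 to 2.37), passed 2-fold in the higher direction under several other settings, up to 1.78, and Ccl5 changed sign under some. Ccl6, at 0.49 (0.41 to 0.56), also passed 2-fold in the higher direction under some settings, up to 1.45.

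**Figure D4:**
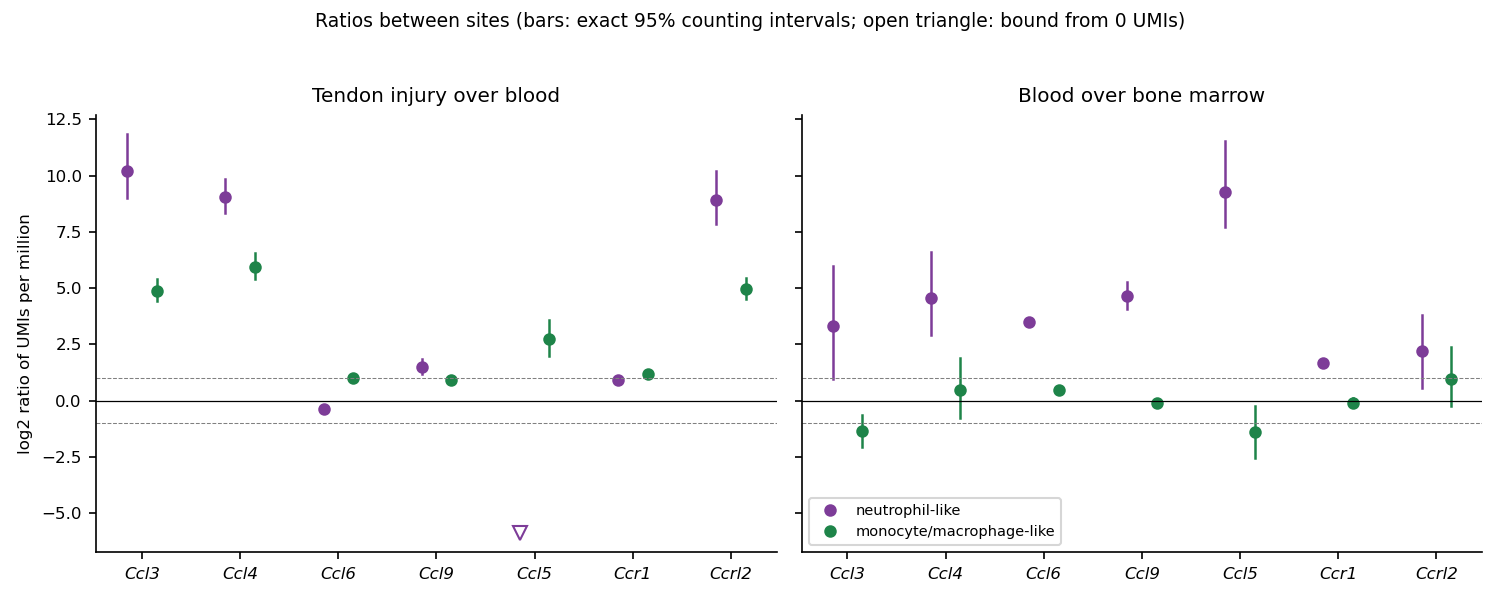
Log2 ratios of CPM between sites for the 7 genes in neutrophil-like and monocyte/macrophage-like cells, with exact 95% counting intervals, dashed lines at 2-fold and an open triangle for the bound of Ccl5. In tendon over blood Ccl3, Ccl4 and Ccrl2 lie at 4.89 or above in both classes.

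Set against each other within the tendon library, where preparation was shared, neutrophil-like cells had higher CPM of 4 members and lower CPM of 2. The limit was 2-fold, and 10.2% and 53.3% of 11204 genes were higher and lower. Neutrophil-like and monocyte/macrophage-like cells had medians of 3492 and 11662 UMIs, in that order. Without thinning, 56.4% and 54.5% of them held Ccrl2 and 85.5% and 73.5% held Ccr1. For Ccl3 the shares were 55.4% and 38.1%, and for Ccl4 55.2% and 31.9%. Of the tendon UMIs they held 44.0% and 39.6% for Ccl3 and 42.8% and 41.5% for Ccl4. For Ccrl2 these were 27.1% and 47.0%, and for Ccr1 21.9% and 54.5%. Unnamed clusters held a further 14.8% of the Ccl3, 13.2% of the Ccl4, 19.6% of the Ccrl2 and 20.2% of the Ccr1 UMIs. For Ccl3 and Ccl4 that is more than the gap between the neutrophil-like and monocyte/macrophage-like shares. In log2 ratios of CPM neutrophil-like cells lay above monocyte/macrophage-like cells by 3.41 (3.33 to 3.48) for Ccl3, 3.30 (3.24 to 3.36) for Ccl4, 2.46 (2.38 to 2.54) for Ccrl2 and 1.94 (1.87 to 2.01) for Ccr1. The same ratio was −3.41 (−3.62 to −3.21) for Ccl9 and −0.59 (−0.64 to −0.53) for Ccl6, and Ccl5 was at most −3.25. In blood the same comparison gave 2 members higher and 3 lower, where 10.7% and 51.2% of genes were. Ccr1 (2.19) and Ccl5 (5.35) were higher, and Ccl3 (−1.91, on 5 and 37 UMIs), Ccrl2 (−1.47) and Ccl9 (−4.01) lower. The Ccl5 value came mostly from 5 of 399 neutrophil-like cells. Those 5 held 95.5% of its 312 UMIs and 88.0% of the UMIs of the T and NK marker lists in the class. In bone marrow 0 of 4 were higher and 3 lower, where 11.4% and 46.5% of genes were, and Ccr1 lay at 0.42 (0.26 to 0.59). Free RNA of lysed cells can carry UMIs between classes, and its part in these values was not tested. S100a8 of monocyte/macrophage-like cells was 0.405% of its level in neutrophil-like cells and Cxcr2 0.191%. In the same cells Ccl3 was 9.43%, Ccl4 10.2% and Ccrl2 18.2%. In the other direction C1qb of neutrophil-like cells was 0.727% and Ccl8 1.45% of the monocyte/macrophage level, with Ccl9 at 9.42% and Ccl6 at 66.6%. In mesenchymal-like cells of the tendon, with a median of 34348.5 UMIs, Ccl3 was at 1.87 CPM and was seen in 3.00% of 700 cells, and in 0 of 699 at 1000 UMIs.

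The monocyte/macrophage-like clusters of the tendon differed among themselves. The cluster led by interferon-response genes (Rsad2, Ifit2 and Ifit3; 180 cells) had the highest Ccl3 and Ccl4 of the 6 monocyte/macrophage-like tendon clusters, at 291 and 551 CPM and the lowest Ccl6, at 510 CPM. The cluster led by Ly6c2 and Plac8, genes of classical monocytes, had 54.4 CPM of Ccl3 and 357 CPM of Ccr1. Ccrl2 was highest, at 314 CPM, in the cluster led by Cd74, H2-Aa and Tnfsf9. The clusters with Cd163 among their leading genes had the most Ccl6, with 2730 CPM in 511 cells and 4783 CPM in 27 cells. A cluster of 574 cells led by Arg1, Ppbp and Pf4, left unnamed, had 83.8 CPM of Ccl3, 2080 CPM of Ccl6 and 1257 CPM of Ccl9.

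Several ligands also had high levels in smaller classes. In blood, 34 basophil/mast-like cells held 86.8% of the 944 Ccl3 UMIs of the library and 50.4% of the Ccl4 UMIs, at 3675 CPM (3428 to 3935) and 1602 CPM, although they made up 1.58% of cells. They also held 6870 CPM of Ccl6 and 3024 CPM of Ccl9, had 314 CPM of Ccr1, and had no Ccl5 UMI. A bone marrow cluster led by the basophil genes Prss34 and Mcpt8, also of 34 cells, had 70.1 CPM of Ccl3 and 38.2 CPM of Ccl4. NK-like cells of blood came next for Ccl4, at 312 CPM (277 to 350) and 40.1% of its blood UMIs, with 87.8 CPM of Ccl3. All 139 of them held Ccl5, at 16318 CPM, and T-like cells had 784 CPM. In the tendon Ccl5 was in dendritic-like cells (246 CPM) and in an unnamed cluster of 53 cells with mast and cytotoxic genes (2854 CPM).

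**Figure D5:**
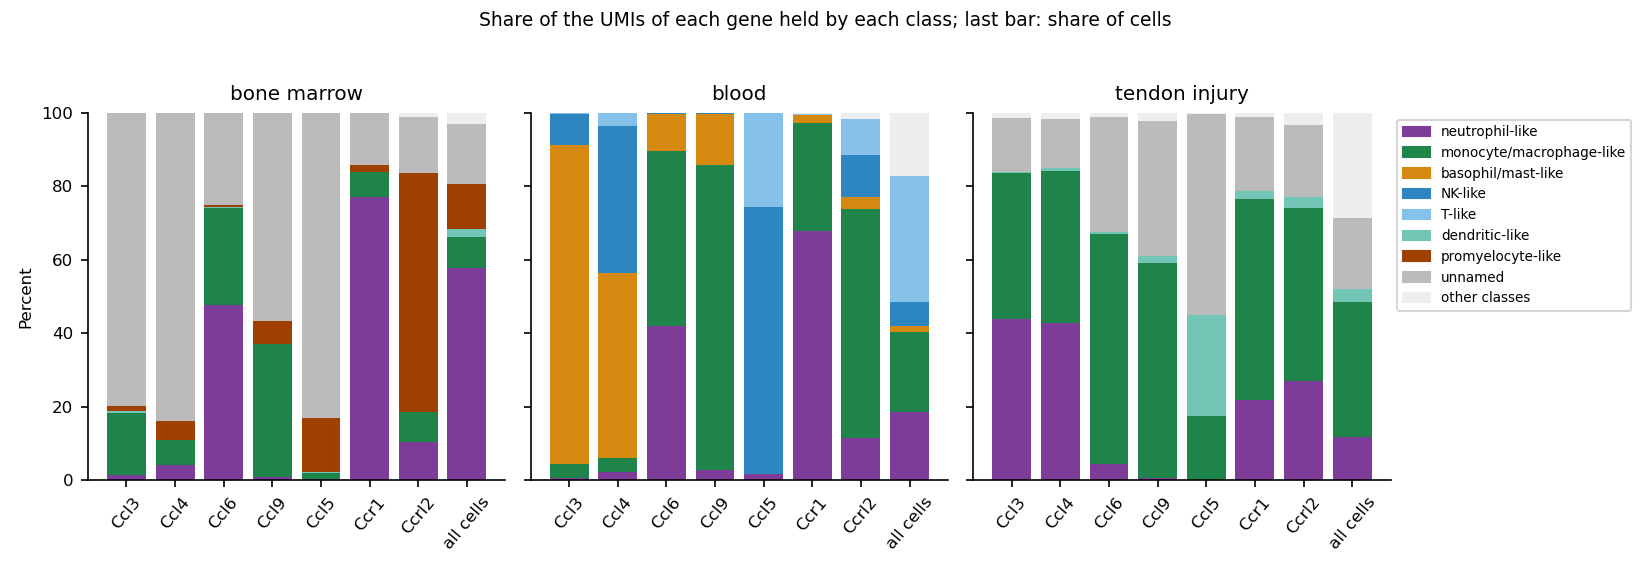
Percent of the UMIs of each gene held by each class in each library (stacked bars to 100%), with the share of cells as the last bar. In the tendon neutrophil-like cells are 11.7% of cells and hold 44.0% of Ccl3 and 42.8% of Ccl4 UMIs. In blood basophil/mast-like cells hold 86.8% of Ccl3 UMIs. Unnamed clusters are 16.2% of bone marrow cells. They hold 79.7% of Ccl3, 84.0% of Ccl4, 83.1% of Ccl5 and 56.6% of Ccl9 UMIs there, which the values of the named marrow classes leave out.

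Placed in order over the 16 classes of at least 50 cells, neighbors differed beyond counting error at the top and not at the bottom. The 34 blood basophil/mast-like cells, higher than all of these for Ccl3, Ccl6 and Ccl9, were too few for this order. Unnamed clusters were left out whatever their size. Of these, the tendon cluster led by Arg1, Ppbp and Pf4 lay above first place for Ccl6 and Ccl9. The tendon cluster led by Arg1, Cxcl3 and Mmp12 lay above second place for Ccl3 and Ccrl2. The unnamed tendon cluster with mast and cytotoxic genes lay above second place for Ccl5. Ccl3 ran from tendon neutrophil-like over tendon monocyte/macrophage-like (139 CPM) to blood NK-like cells (87.8 CPM) without overlap, and from 1.87 CPM down all neighbors overlapped. Ccl4 had the NK-like cells (312 CPM) second and tendon monocyte/macrophage-like cells (213 CPM) next. For Ccrl2 the first 3 places, tendon neutrophil-like, monocyte/macrophage-like and dendritic-like (117 CPM), were separate, and the fourth was at 15.9 CPM. For Ccl6 the first 7 places did not overlap. For Ccl9 bone marrow and blood monocyte/macrophage-like cells, next in order, overlapped. For Ccr1 the neutrophil-like cells of tendon and blood led, and tendon dendritic-like (119 CPM), bone marrow and blood monocyte/macrophage-like cells overlapped in the middle.

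Across those 16 groups, which share 3 libraries and their depths, the gene most like Ccl3 in log2(CPM + 1) was Ccl4 (Pearson r = 0.96), followed by Ist1 (0.89) and Bcl2l11 (0.88). Ccl4 was followed, after Ccl3, by Pim1 (0.89) and Bcl2l11 (0.88). Ccrl2 was nearest to Gla (0.94), Sde2 (0.90) and Tmem189 (0.90), and its r with Ccl3 and Ccl4 was 0.83 for each. Ccl6 went with Pla2g7 (0.98), Tlr13 (0.96) and Cd300ld (0.96), and Ccr1 with Lilrb4a (0.98), Cd300ld (0.98) and Ptafr (0.98), with an r of 0.94 between Ccl6 and Ccr1. Ccl9 followed Csf1r (0.95), Fcgr1 (0.93) and Cd68 (0.93), and Ccl5 followed Klrk1 (0.97), Cxcr3 (0.92) and Klre1 (0.92). Most of these names depended on the measure. With Spearman in place of Pearson correlation, 1 of the 3 named genes stayed for Ccl3, Ccl4, Ccl6, Ccl9 and Ccrl2. For Ccl5 2 stayed and for Ccr1 0. By Spearman correlation Cd163 (0.94) came before Ccl4 (0.90) for Ccl3, and Ccl3 (0.90) stayed first for Ccl4.

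Other genes of the system gave the setting. Of 15 other CC ligands 4 could be compared between tendon and blood neutrophil-like cells and 3 were at least 2-fold higher, where 12.1% of all genes were, with a median log2 ratio of 4.38 beside −0.29 over all genes. These were Ccl2 (6.13, 4.88 to 7.77), Ccl8 (at least 4.54) and Ccl7 (at least 4.21), monocyte attractants that reached 86.9, 17.4 and 13.8 CPM in neutrophil-like cells. Tendon monocyte/macrophage-like cells held 672, 1195 and 508 CPM of the same genes, and Ccl8 of neutrophil-like cells was at the 1.45% of that level given above beside free RNA, whose part in these values was not tested. Ccl25, named after its value was seen, was lower (−1.90) on 3 and 20 UMIs. In monocyte/macrophage-like cells 4 of 7 were higher, where 15.9% of all genes were, led by Ccl8 (at least 11.62), Ccl7 (at least 10.38) and Ccl12 (at least 8.95). Among other CC receptors Ccr2, which draws monocytes from the marrow, was lower in tendon than in blood neutrophil-like cells (−2.21, −3.09 to −1.43), on 15 and 124 UMIs. In monocyte/macrophage-like cells Ccr9 was lower (−7.24, −10.30 to −5.35) on 2 and 111 UMIs and Ccr3 higher (3.26) on 52 and 2.

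Of the chemerin system that Ccrl2 belongs to, no gene had enough UMIs to compare tendon with blood neutrophil-like cells. Cmklr1, the signaling chemerin receptor, had 1032 UMIs in tendon monocyte/macrophage-like cells (48.2 CPM, log2 ratio to blood 1.09, 0.86 to 1.32) and none in tendon neutrophil-like cells. Rarres2, which encodes chemerin, was at 2.24 and 3.57 CPM in these classes. Of 19 genes of inhibitory G-protein signaling, 18 could be compared in neutrophil-like cells, 1 was at least 2-fold higher and 1 lower, where 12.1% and 22.9% of all genes were, and the median log2 ratio of −0.31 was near the −0.29 of all genes. Rgs1, a brake on G-protein signals, was higher in tendon (3.71, 2.75 to 4.83) and Grk6, a receptor kinase, lower (−1.69, −2.11 to −1.29). In monocyte/macrophage-like cells 1 of 19 was higher and 4 were lower, where 15.9% and 13.3% of all genes were, with Rgs1 at 3.84, Grk3 at −2.48 and Itgb2, the common leukocyte integrin chain, at −1.44.

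Immediate early and stress genes, which digestion and handling can also induce, were higher in the tendon together with Ccl3, Ccl4 and Ccrl2. Their 13 genes summed to 345, 2255 and 7199 CPM in neutrophil-like cells of bone marrow, blood and tendon and to 653, 1359 and 8808 CPM in monocyte/macrophage-like cells. In tendon over blood 8 of 12 were at least 2-fold higher in neutrophil-like cells (median 2.37), where 12.1% of all genes were, with Egr1 at 4.96, Nr4a1 at 4.86 and Ier3 at 4.60. In monocyte/macrophage-like cells 11 of 13 were higher (median 2.98), where 15.9% of all genes were, with Ier3 at 6.46, Fosb at 6.04 and Egr1 at 5.75. Their part in the levels of the chemokine genes was not tested.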

How the data were processed

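The deposited matrices hold UMI counts per gene and cell, made by the authors with Cell Ranger (version 5.0.1 per the file headers) on mm10 per the labels. Totals were 49580625 (bone marrow), 22542581 (blood) and 90621052 (tendon) UMIs over 1855, 2241 and 5629 deposited cells. Cells with under 200 genes or over 20% mitochondrial UMIs were dropped, then the highest Scrublet scores at 0.8% per 1000 cells, since its automatic calls were few. Each library was clustered alone (scanpy 1.11.5, igraph 0.11.9, Leiden resolution 1, 2000 variable genes, 30 components). Each cell took the class of its highest marker score if at least 3 of those markers were detected. The 100 leading genes of a cluster named a class with at least 3 markers and more than any other class. A cluster took a class that its leading genes and at least 1 in 2 of its cells shared. Where leading genes named none, at least 2 in 3 cells had to share it. Clusters whose 10 top genes held more markers of another class stayed unnamed. So did those with low UMIs and no own marker there, and all others. UMIs were summed per class. With 1 library per tissue no test was run. Exact Poisson, Clopper-Pearson and binomial-split intervals (95%, scipy 1.17.1) and the floor of 3 counts cover counting error only. Ratios were read for genes with at least 20 UMIs over both groups, with a limit of 2-fold. All 7 members were described. For each, the 3 genes of highest Pearson r were named, and per list and comparison the 3 largest ratios. Members, lists and the naming rule were chosen with earlier results of these data known. Positions are from GENCODE M21 and promoters from RefSeq. The scripts were tested on simulated data. A result of the receptor list is not reported here.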

Additional observations from a re-analysis of the deposited data

Results flagged for a closer look

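Some differences between cell classes stood out because the ratios of the same site contrast had opposite signs in neutrophil-like and monocyte/macrophage-like cells; each rests on 1 library per site, and none of the differences was tested. For Ccl6 the tendon-to-blood log2 ratio was −0.36 in neutrophil-like and 1.02 in monocyte/macrophage-like cells, a difference of −1.38. For Ccl5 the same contrast was at most −5.86 against 2.75, a difference of at most −8.60, with 95.5% of the blood neutrophil-like UMIs in 5 cells. For Ccl9 the blood-to-marrow log2 ratio was 4.64 against −0.09, a difference of 4.73, but the second value lay near 0 and ranged from −0.27 to 0.54 under other processing, so opposite directions were not established. For Ccl5 that contrast was 9.27 against −1.38, a difference of 10.65. The first value rested mostly on those same 5 blood cells. The second rested on 15 blood UMIs and 14 marrow UMIs, and the marrow UMIs were all in 1 of 155 cells.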

How the results depend on the processing

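No paired analysis was possible because each tissue had 1 library and no result came from a test. The classes were rebuilt under other filters, doublet removal, resolutions, naming and integration with Seurat 5.3.0, and 3 alternatives on late clusters and unnamed clusters were chosen after seeing the data. Of 481 alternative log2 ratios of the 7 genes, 321 moved by less than their interval, 154 moved by more, and in 6 a ratio reported past 2-fold changed sign. The count of members past 2-fold between bone marrow and blood neutrophil-like cells went from 5 to 3 with classes named cell by cell, with no filter on cells, with 3 times as many doublets removed, at resolution 0.5, at resolution 2 and with Seurat, and to 2 with late clusters only. Ccl4 and Ccl5 left that count with log2 ratios that stayed between 3.09 and 4.57 and between 4.85 and 10.36, because they had under 20 UMIs over both groups. In monocyte/macrophage-like cells the count of 2, both lower, ranged from 1 to 3, and with classes named cell by cell the 1 member was Ccrl2, higher in blood (1.24). Ccrl2 ranged from 0.93 to 1.78 there, Ccl3 from −1.45 to −0.91 and Ccl6 from 0.22 to 1.45. Ccl6 was past 2-fold at resolution 0.5, with Seurat and with unnamed bone marrow clusters counted in. In the same contrast ratios reported within 2-fold also crossed 0, with ranges of −2.33 to 0.77 for Ccl4, −0.27 to 0.54 for Ccl9 and −0.26 to 0.22 for Ccr1. The sign changes of ratios past 2-fold were all of Ccl5 in monocyte/macrophage-like cells. Its tendon-to-blood log2 ratio of 2.75 became −0.99 with no doublets removed and −0.021 with 3 times as many removed. Its blood-to-marrow ratio of −1.38 became 1.12 with classes named cell by cell, 2.39 with no doublets removed, 0.026 with Seurat and 0.44 with unnamed bone marrow clusters counted in. The cause was not tested. Over these alternatives the tendon-to-blood ratio of neutrophil-like cells ranged from 9.82 to 12.38 for Ccl3, 8.76 to 9.41 for Ccl4 and 8.36 to 9.20 for Ccrl2. Low UMI numbers limit Ccl3, Ccl4 and Ccrl2 in blood and bone marrow.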

Other observations

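Further clusters that took no class name held members at levels that varied. A tendon cluster of 69 cells led by Arg1, Cxcl3 and Mmp12 had 217 CPM of Ccl3 and 257 CPM of Ccrl2. A tendon cluster of 122 cells led by Acp5, Mmp9 and Ctsk, genes of osteoclasts, had 39.5 CPM of Ccl3, 519 CPM of Ccl6 and 618 CPM of Ccl9. A bone marrow cluster of 21 cells led by Ccl5 and Gzma had 2829 CPM of Ccl5 and 20.2 CPM of Ccl4.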
